A study of Mus musculus with 8 samples.

Results

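Mmp9+ stromal cells of the mouse femur are described here. They were taken from single-cell RNA sequencing of bone stromal cells, and they number 628 of the 45328 cells that passed the filters (500 to 6000 genes and at most 25% mitochondrial transcripts). A cell was counted as a member when it held at least 2 unique molecular identifiers (UMIs, each standing for 1 captured transcript) of Mmp9, a gelatinase, and at least 1 UMI of Pdgfrb, the PDGF receptor of perivascular and mesenchymal cells. It had to lack any UMI of Ptprc, the blood cell marker CD45, and of Cdh5, the endothelial marker VE-cadherin. Cells rich in osteoblast transcripts (Bglap and Bglap2, 100 or more per 10000 UMIs) or in cartilage transcripts (Acan, Hapln1 and Matn3, 40 or more per 10000) were also left out. The members were thus chosen by their measured UMIs of these genes, and the levels of Mmp9 and Pdgfrb are given only as a description.

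The bones came from 12-week-old C57BL/6 female mice of 2 groups. The Control group was unfractured. In the Fracture group the femur had been broken by three-point bending, then stabilised with an intramedullary nail, and was collected at day 14 after fracture. Both groups were depleted of lineage-positive, CD45+ and CD117+ blood cells with magnetic beads, and per the labels each holds 2 cell preparations with 2 libraries apiece, 8 libraries in all. The labels do not say that the preparations came from separate animals, so the p-values below measure only the spread between these preparations, which may be technical.

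Septoclasts are mononuclear, vessel-associated cells of mesenchymal origin at the border of cartilage and bone. They are known for secreting proteases that break down the transverse septa of the growth plate as vessels advance. Other cells of the metaphysis, among them hypertrophic chondrocytes and osteoblasts, also make matrix metalloproteinases, so a protease transcript alone does not define the type.

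The members numbered 99 and 59 in the Control preparations 1 and 2 and 224 and 246 in the Fracture preparations. They made up 3.19% and 3.18% of the Pdgfrb stromal cells (cells that meet the rule without its Mmp9 part) in Control and 13.4% and 12.9% in Fracture. The difference was 9.97 percentage points (two-sided exact permutation test, p = 0.333, the smallest value that 2 against 2 preparations allow). The denominator itself changed in depth and makeup. Its median depths were 5419, 6940, 8933 and 9690 UMIs in Control 1, Control 2, Fracture 1 and Fracture 2. In the same order, 2494 of 3100, 1618 of 1857, 1672 of 1673 and 1903 of 1903 cells held at least 3000 UMIs. Among Pdgfrb stromal cells that held at least 2 UMIs of the collagenase transcript Mmp13 and few of Adipoq, 15.1% and 14.5% met the Mmp9 limit in Control and 20.4% and 18.9% in Fracture. In endothelial cells (Cdh5 and Pecam1, no Ptprc), set beside them as another cell type, 0.0637% and 0.174% of Control and 1.19% and 1.24% of Fracture cells held 2 or more UMIs of Mmp9, and 0.396% and 0.345% of the Fracture cells held 10 or more. Median depths in these endothelial cells were 4630 to 8396 UMIs, against 9141 to 9870 in the members.

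Mmp9 itself spanned more than 2 orders of magnitude among the members (plot of Mmp9 UMIs by cell). The median was 9, 8, 7 and 7.5 UMIs in Control 1, Control 2, Fracture 1 and Fracture 2, and the largest value was 930. Just inside the limit were 124 cells with exactly 2 UMIs, and just outside it were 393 cells with 1 UMI. At 10 UMIs or more stood 280 members, or 44.6%, with 48, 28, 98 and 106 of them in the 4 preparations in the same order. Members held medians of 2972 to 3728 genes per cell across the 8 libraries.

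**Figure D1:**
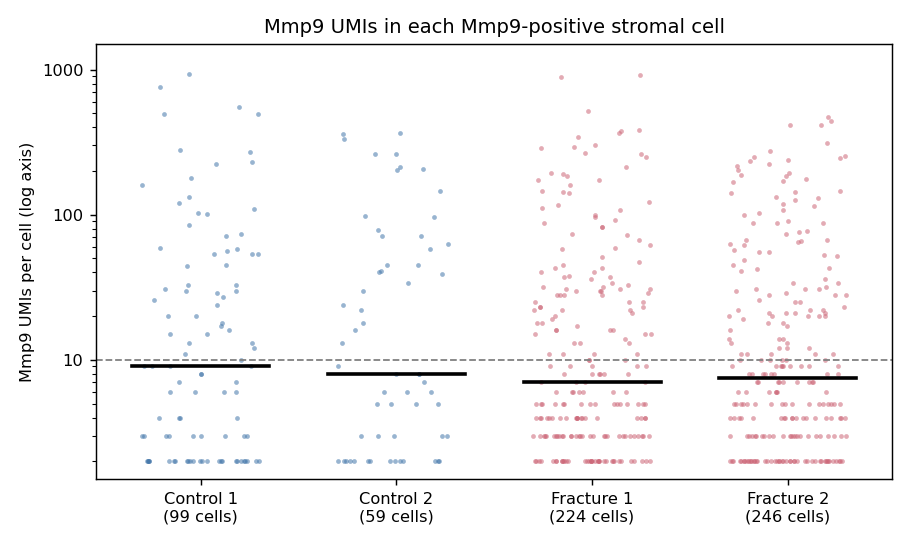
Mmp9 UMIs in each of the 628 member cells (log axis), 1 point per cell, by preparation. Black bars mark the medians of 7 to 9 UMIs and the dashed line marks 10 UMIs, which 280 members reach.

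The name septoclast was then checked against genes outside the rule. Angpt4, a ligand of the TIE2 receptor (chr2:151911210-151945337, plus strand, GRCm38), stood at 251, 222, 51.8 and 55 CPM (UMIs of the gene per 1000000 UMIs of the class) in the members of Control 1, Control 2, Fracture 1 and Fracture 2. It stood at 252, 326, 34.3 and 30.2 CPM in Mmp13+ Mmp9- stromal cells, the class most like the members (2237 cells with at least 2 UMIs of Mmp13, no Mmp9 and under 3 UMIs of Adipoq). The classes overlapped, with a log2 difference of 0.10 ± 0.19 (SE; adjusted p = 0.847, edgeR). This value averages over 2 groups that differed. In Control the members were not higher, and in Fracture they were higher without overlap. The fracture effect on Angpt4 was more positive in the members, by 0.89 on the log2 scale (called at an adjusted p under 0.05, edgeR). Angpt4 thus did not separate the members from these cells in both groups, and the members are called Mmp9+ stromal cells below. Markers of osteoclasts, the other Mmp9-rich cells of bone, differed among themselves. Calcr, Ocstamp and Dcstamp had 0 UMIs in all 628 members, Atp6v0d2 was found in 8 and Acp5 in 60. Itgb3, also on that list, had group means of 86.1 CPM in Control and 46.2 CPM in Fracture members. The 8 osteoclast markers summed to 97.7, 276, 79.3 and 81.8 CPM in the members. They summed to 179, 103, 109 and 105 CPM in the Mmp13+ Mmp9- cells and to 283, 159, 104 and 107 CPM over all passing cells. In Control 2 the members thus held more than either, and Acp5 alone gave 170 CPM there. Members of the other preparations held 8.69 to 15.8 CPM of Acp5. Neutrophil markers summed to 3401 CPM in Control 1, 15.8 in Control 2, 22.6 in Fracture 1 and 264 in Fracture 2. In Control 1, 1 cell held 1118 of the 1122 UMIs of S100a8 and 1233 of the 1235 UMIs of S100a9. Macrophage markers (7 in the tables) ranged over 12.6 to 125 CPM and endothelial markers over 14.2 to 22.6 CPM. A doublet caller marked 2 members, and 6 members carried a barcode that also passed the filters in another library.

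These cells were then compared with their nearest neighbours. UMIs were summed over the members and over the Mmp13+ Mmp9- stromal cells in each preparation, with the preparation as a block (n = 4 preparations). The limits on Mmp13 and Adipoq were set for the latter class only. Members that also met both numbered 84 of 99, 42 of 59, 207 of 224 and 221 of 246. Genes that go with Mmp13 or Adipoq can differ by this choice of cells, and its part was not tested. Of 9 genes tested that mark diaphyseal stromal cells, Lpl alone was called, higher in the members. Of 11782 genes tested, 796 differed (6.76%), 329 higher in the members (2.79%) and 467 lower (3.96%). The count fell to 228 without Fracture 1 and to 320 without Fracture 2. Among the genes higher in the members were those of a hormone receptor, a complement regulator, some Notch targets and some of the hedgehog pathway. Among those lower were genes of matrix proteins.

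Sstr2, a receptor for the hormone somatostatin (chr11:113619342-113626028, plus strand), was at 92.3, 61.5, 75.3 and 59.5 CPM in the members and at 3.71, 9.39, 3.74 and 2.95 CPM in the Mmp13+ Mmp9- cells. The ranges were far apart in both groups, with a log2 difference of 3.96 ± 0.25 (adjusted p = 0.000198). After every cell of at least 2000 UMIs was thinned to that depth, Sstr2 was found in 13.8%, 11.9%, 10.3% and 7.32% of members and in 0.759%, 2.74%, 1.28% and 0.581% of the other cells. Before thinning, and over all cells, these shares were 36.4%, 28.8%, 27.7% and 22.8% against 2.52%, 4.26%, 2.7% and 2.67%, at median depths of 9356, 9870, 9141 and 9525 against 7310, 7595, 9663 and 10109 UMIs. Cells under 2000 UMIs were left out of thinned shares, here 5 members and 42 other cells of Control 1 and 16 other cells of Control 2. In Ptprc+ blood cells of the Control libraries, which serve as a background, the thinned share was 0 of 593 and 0 of 326 cells, which allows up to 0.506% and 0.92% of cells with a UMI at that thinned depth. Before thinning it was 0.94% in Control 1, with no UMI in Control 2, at median depths of 11197 and 12283 UMIs.

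Cd55, the decay-accelerating factor that protects cells from complement (chr1:130439027-130462744, minus strand), was at 320, 285, 101 and 106 CPM in members and at 47.9, 34.7, 12.2 and 14.6 CPM in the Mmp13+ Mmp9- cells. Each preparation showed the same direction, with a log2 difference of 2.80 ± 0.10 (adjusted p = 1.42e-05). After thinning, Cd55 was found in 40.4%, 37.3%, 14.3% and 16.7% of members and in 8.26% and 7.98% of the Ptprc+ Control cells. Npl, which cleaves free sialic acid (chr1:153503015-153550045, minus strand), was at 74.9, 37.8, 54 and 41.5 CPM against 11.1, 3.76, 8.82 and 5.59 CPM, and its log2 difference was 2.68 ± 0.15 (adjusted p = 0.000116). Its thinned share was 13.8%, 5.08%, 8.04% and 6.1% in members against 6.75% and 7.98% in the Ptprc+ Control cells, so the shares of the members and the blood cells overlapped. Otos, otospiralin, a small secreted protein known from the fibrocytes of the inner ear (chr1:92644218-92648841, minus strand), was at 53.2, 45.7, 28.3 and 21.9 CPM against 0.571, 3.29, 0.936 and 1.32 CPM. This was the largest difference among the genes named, at a log2 value of 4.46 ± 0.33 (adjusted p = 0.000325). The remaining named genes that were higher were C6, a complement component (log2 2.20), Ralgps2, an activator of Ral GTPases (2.44), the tight junction gene Cldn1 (2.36), the adrenergic receptor gene Adra2c (2.48), the adaptor gene Lcp2 (2.15) and Heyl. Leaving out 1 preparation ended some of these calls. Adra2c was not called without Control 1 (log2 2.30) or Control 2 (1.94), Cldn1 without Control 1 (1.84), Control 2 (2.01) or Fracture 1 (2.62), and Lcp2 without Fracture 1 (1.90).

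**Figure D2:**
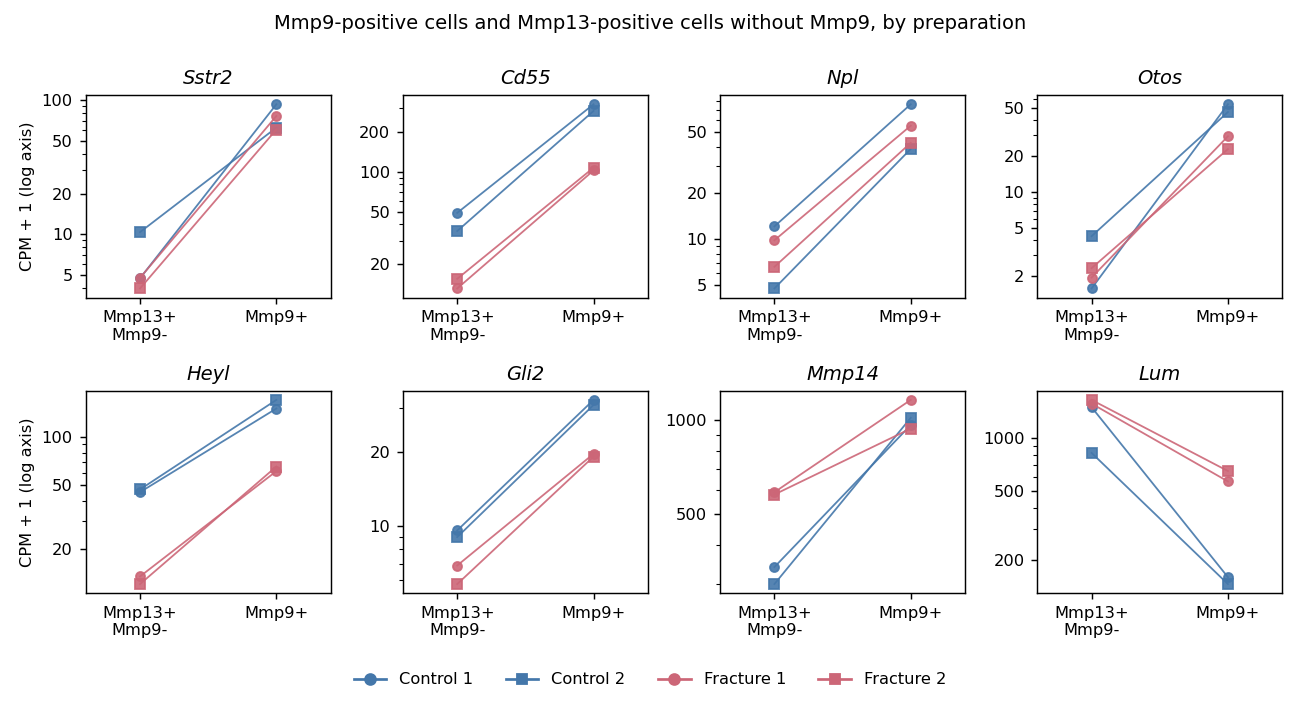
CPM + 1 (log axis) of 8 genes in the Mmp13+ Mmp9- stromal cells (left of each panel) and in the Mmp9+ stromal cells (right), 1 line per preparation. In all 4 preparations Sstr2, Cd55, Npl, Otos, Heyl, Gli2 and Mmp14 are higher in the Mmp9+ cells and Lum is lower.

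Notch genes, which act between neighbouring cells, were among those that differed. Of 8 Notch targets and modulators tested, 3 were higher in the members and 0 lower. Heyl, a repressor induced by Notch (chr4:123233556-123249875, plus strand), was at 150, 170, 60.2 and 64.4 CPM against 44.2, 46, 12.4 and 11 CPM, a log2 difference of 2.01 ± 0.13 (adjusted p = 0.000262). Its relatives Hey1 (124, 63.1, 49.2 and 60.3 CPM against 63.9, 47, 13.2 and 14.1; log2 1.29 ± 0.24, adjusted p = 0.0158) and Hey2 (20.6, 9.46, 14.6 and 11.3 CPM against 7.99, 2.82, 2.14 and 1.83; log2 2.06, adjusted p = 0.00593) were also higher in every preparation. The other 5 genes of the list, targets or modulators, did not pass the test. Of 3 receptors, Notch1 was higher (18.5, 12.6, 9.74 and 10.9 CPM against 5.99, 7.04, 2.94 and 2.64; log2 1.52, adjusted p = 0.0103), while Notch3 did not pass (log2 0.80, adjusted p = 0.0604). Jag1, the only ligand that passed the filter on low counts, had a log2 difference of 0.23 (adjusted p = 0.437).

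Genes of the pathway of hedgehog, the signal of growth plate chondrocytes, showed a like pattern, with 4 of 10 higher and 1 lower. The transcription factor Gli2 was at 31.5, 30, 18.6 and 18.1 CPM in members against 8.56, 7.98, 5.88 and 4.78 CPM (log2 1.71 ± 0.17, adjusted p = 0.00124). Gli1, a direct target, was at 38, 18.9, 14.2 and 21.1 CPM against 7.71, 5.63, 6.01 and 7.93 CPM (log2 1.49 ± 0.23, adjusted p = 0.00748). The receptor gene Ptch1, which is also a target, was at 59.7, 34.7, 28.3 and 23.7 CPM against 12, 12.7, 11.8 and 8.03 CPM (log2 1.52 ± 0.20, adjusted p = 0.0042). No preparation overlapped between the classes for these 3 genes. The co-receptor gene Cdon was lower (log2 -1.42, adjusted p = 0.00612). Hhip, of the same list, was not called, with group means of 10.8 against 8.24 CPM in Control and 6.68 against 6.62 CPM in Fracture.

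Among proteases other than Mmp9 and Mmp13, 3 of 9 matrix metalloproteinases were higher and 2 lower. Mmp14, the membrane-bound collagenase that also activates other proteases (chr14:54431612-54445364, plus strand), was at 966, 1019, 1163 and 941 CPM in members against 338, 298, 588 and 578 CPM, a log2 difference of 1.12 ± 0.18 (adjusted p = 0.00945). Mmp10 was higher through the Fracture preparations alone, being at 0 UMIs in both classes in Control, and Mmp11 was higher by a log2 value of 0.67 (adjusted p = 0.0361). The gelatinase gene Mmp2 (log2 -0.65) and Mmp23 (-0.41) were lower. Of 15 genes of the ADAM, ADAMTS and endothelin-converting families, Adam19 (56.5, 34.7, 43.8 and 40.3 CPM against 10.3, 11.3, 16.7 and 16; 2.82-fold, adjusted p = 0.00457) and Ece1 (log2 0.82, adjusted p = 0.00218) were higher. Of 19 genes of the lysosome 2 were higher, led by Ctsc, a cathepsin that activates serine proteases, at 273, 229, 254 and 208 CPM against 120, 100, 65 and 64.7 CPM (log2 1.41 ± 0.13, adjusted p = 0.000813). Of 16 subunits of the proton pump only Tcirg1 was higher (log2 0.51, adjusted p = 0.0249).

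Genes that act on vessels and on osteoclasts were also compared. Of 16 vascular ligands and receptors, 5 were higher (Pgf, Sema3a, Angpt1, Angpt2 and Efnb1) and Pdgfrl was lower. Pgf, placental growth factor, was at 93.4, 74.1, 99.6 and 84.4 CPM in members and at 58.8, 45.5, 17.1 and 16.3 CPM in the Mmp13+ Mmp9- cells (log2 1.55 ± 0.31, adjusted p = 0.0235). Tnfsf11, which encodes the osteoclast factor RANKL, was at 168, 129, 124 and 111 CPM against 75.6, 54, 81.4 and 66.3 CPM, a log2 difference of 0.79 ± 0.14 (adjusted p = 0.0138) and the only one of 7 genes of its list that passed. Spp1, the bone matrix protein osteopontin, was at 39040, 45253, 39835 and 35295 CPM in members and at 45370, 42700, 40675 and 37725 CPM in the other cells (log2 -0.17 ± 0.07, adjusted p = 0.234).

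Matrix genes were compared by list. Of 12 fibrillar collagens and their partners 0 were higher and 6 lower, Col1a1 by a log2 value of -1.31 (adjusted p = 0.0302). Lum, the collagen-binding proteoglycan lumican, was at 159, 145, 564 and 647 CPM in members against 1502, 822, 1575 and 1654 CPM (log2 -2.20 ± 0.28, adjusted p = 0.00343). Col4a1 of the basement membrane was at 394, 375, 214 and 197 CPM against 164, 169, 111 and 79.3 CPM (log2 1.06 ± 0.10, adjusted p = 0.000754), and of 11 basement membrane genes 3 were higher (Col4a1, Col4a2 and Agrn) and 3 lower (Col15a1, Hspg2 and Sparc). Other named genes that were lower were Itgbl1 (log2 -3.27), Sftpa1 (-3.21), Chst1 (-2.51), Ctsw (-2.32), Abi3bp (-2.26), 4833424O15Rik (-2.26), the WNT antagonist gene Sfrp2 (-2.22), Tnn (-1.86) and Ndnf (-1.85). Without Fracture 1 the calls of Ctsw (-2.27), Abi3bp (-2.14), 4833424O15Rik (-2.36), Sfrp2 (-2.31), Tnn (-1.71) and Ndnf (-2.20) were lost. The call of 4833424O15Rik was also lost without Control 1 (-2.45), and that of Ndnf without Control 1 (-1.48) or Control 2 (-1.47). With only cells of low Col10a1 (defined below) Ctsw was not called (-1.27, adjusted p = 0.15), and without cells that carried marks of other types Ndnf was not called (-1.80, adjusted p = 0.0593). Of 12 WNT and BMP antagonists 2 were higher, Dkk2 and Grem1, and 5 lower. Markers of other cell types moved with these genes: all 5 chondrocyte markers tested and 6 of 7 fibroblast markers were lower in the members, and the 8 chondrocyte markers summed to 619, 677, 8422 and 10108 CPM in members against 3904, 3499, 30365 and 30916 CPM. Of 6 osteoblast markers 3 were lower (Ibsp, Dmp1 and Phex), and that list summed to 7149, 8995, 9839 and 9055 CPM against 15019, 14653, 12967 and 14794 CPM. Nfatc1, of 3 osteoclast markers tested, was lower. Higher were 2 of 5 neutrophil markers (S100a8 and S100a9, whose Control 1 UMIs lay almost wholly in the cell given above) and 2 of 7 smooth muscle and pericyte markers (Mcam and Kcnj8). Their part in the result was not tested. With only cells that held under 40 UMIs of Col10a1 per 10000 the count was 669.

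Levels of these genes were also set out by the amount of Mmp9 within the members (description only, since Mmp9 chose the cells). Sstr2 was at 28.6 CPM in Control cells with 2 to 9 UMIs of Mmp9 and 130 CPM at 10 or more, and at 18.1 and 129 CPM in Fracture. In cells with 1 UMI, outside the rule, it was 4.57 and 7.34 CPM. Cd55 went from 57.1 to 129 to 479 CPM over the 3 tiers in Control and from 17 to 30.8 to 197 CPM in Fracture. Of the 10 named genes that were higher in members, 8 were higher at 10 or more UMIs than at 2 to 9 in all 4 preparations. Adra2c and C6 were not among these 8. Of the 10 named genes that were lower in members, 3 were lower at 10 or more in all 4 (Abi3bp, Lum and Ndnf). Over all 11782 genes tested, 11.6% were higher and 9.42% lower in this way. The named genes had been chosen by a comparison with cells that lack Mmp9, so their counts are no separate evidence. Mmp14 rose from 525 to 1439 CPM between these tiers in Control and from 632 to 1571 CPM in Fracture.

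Other genes ran the opposite way. Cxcl12, the chemokine that retains blood stem cells, was at 13750, 8336 and 1807 CPM over the 3 tiers in Control and at 940, 821 and 483 CPM in Fracture. Adipoq, a marker of marrow stromal cells, was at 1381, 721 and 36.8 CPM in Control and at 40.6, 13 and 4.18 CPM in Fracture. Both transcripts were thus lower at 10 or more UMIs of Mmp9 than at 2 to 9 in the sums of each group. Lum was at 454, 255 and 53.4 CPM over the tiers in Control and at 1384, 886 and 253 CPM in Fracture. Dcn, the proteoglycan decorin, was at 792, 424 and 75 CPM in Control and at 2656, 1672 and 337 CPM in Fracture. Angpt4 was highest in the middle tier in both groups, at 94.4, 272 and 207 CPM in Control and 40.6, 63.4 and 40.9 CPM in Fracture.

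**Figure D3:**
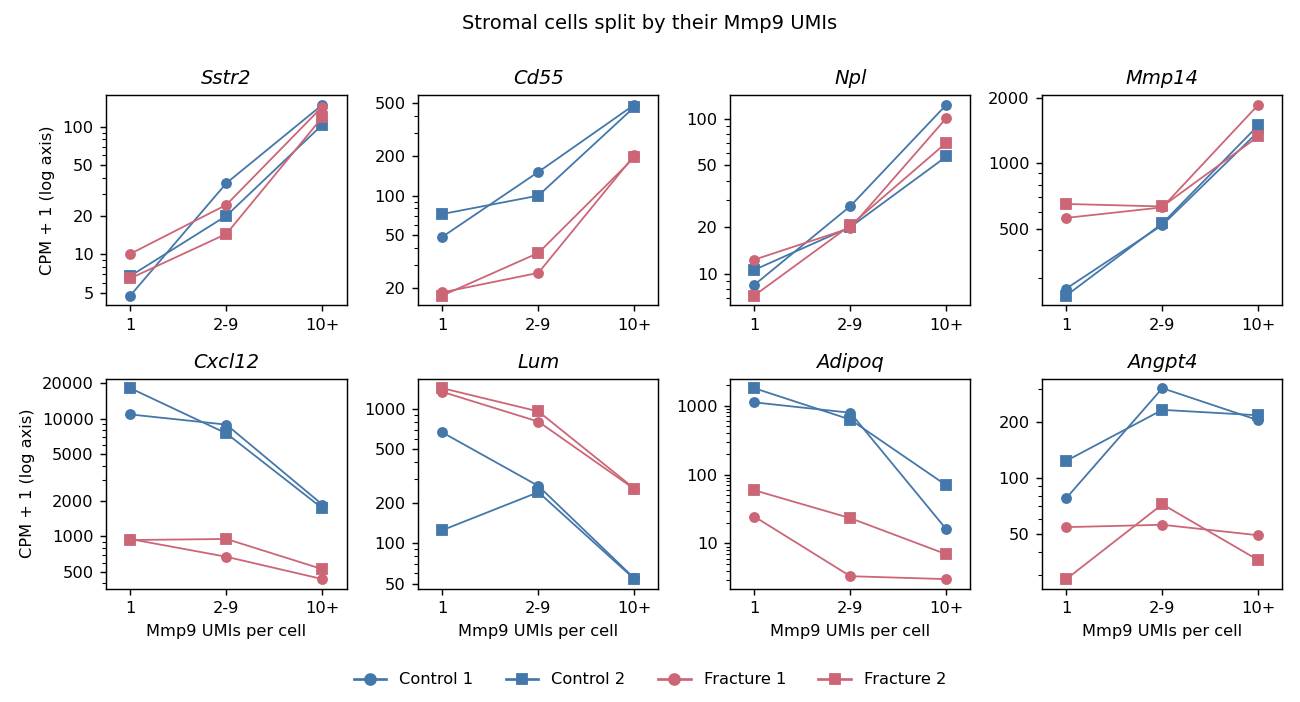
CPM + 1 (log axis) of 8 genes in stromal cells that hold 1, 2 to 9 and 10 or more UMIs of Mmp9, 1 line per preparation. With the 2 preparations of a group summed, Sstr2, Cd55, Npl and Mmp14 rise across the tiers in each group, Cxcl12 and Lum decline, and Angpt4 is highest at 2 to 9 UMIs.

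The effect of a fracture on these cells was tested on UMIs summed over the members of each preparation (n = 2 preparations per group). In such sums, more cells with a transcript and more transcript per cell cannot be told apart. Of 10204 genes tested, 2325 differed (22.8%), 1257 higher (12.3%) and 1068 lower (10.5%) in Fracture. The count was 1374 without Fracture 1, 856 with DESeq2 and 997 in members with 10 or more UMIs of Mmp9, and 925 of those 997 genes were among the 2325. Fracture members held acute-phase, neutrophil-attracting and matrix-degrading transcripts in a few cells, more of the cell cycle and collagen transcripts, and less of the genes of marrow stromal cells.

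The UMIs of the largest rises lay in few of the member cells. Saa3, an acute-phase protein (chr7:46711998-46715700, minus strand), was at 0 UMIs in both Control preparations and at 628 and 725 CPM in Fracture, at least 353-fold higher against a floor of 3 UMIs over the Control group. It was found in 30 of 470 Fracture members, and 5 cells held 65.1% of its 3340 UMIs. These lay mostly in members of low Mmp9: Saa3 was at 643 CPM in Fracture cells with 1 UMI of Mmp9 (outside the rule), at 1182 CPM with 2 to 9 and at 36.2 CPM with 10 or more (4.08 and 63.2 CPM in the 2 preparations). By preparation it was at 377 and 918 CPM with 1 UMI and at 1106 and 1248 CPM with 2 to 9. With exactly 2 UMIs, just inside the limit, it was at 708 CPM in Fracture 1 and 2841 CPM in Fracture 2. In the Mmp13+ Mmp9- cells it was at 0, 0, 382 and 283 CPM, and over all passing cells at 1.29, 0.225, 47 and 73.3 CPM. After thinning, Saa3 was found in 4.02% and 4.88% of Fracture members, and 0 Control cells with it allow up to 3.19% and 5.08%.

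Stromelysin genes also rose, again with most UMIs in few cells. Mmp3 (chr9:7445822-7455975, plus strand) was at 0 and 1.58 CPM in Control and 352 and 218 CPM in Fracture, a ratio of 435 (95% counting interval 78 to 17196) on 1 Control UMI, with an adjusted p of 1.3e-08. Of its 1374 UMIs in Fracture, 84.1% lay in 5 of 21 cells, and 1 cell of Fracture 1 held 646 of the 795 in that preparation. Over the same 3 tiers of Mmp9, Mmp3 was at 131, 620 and 3.06 CPM in Fracture 1 and at 175, 228 and 206 CPM in Fracture 2, so the preparations did not share an order. Mmp10 (chr9:7502352-7510240, plus strand) was at 0 UMIs in Control and 38.5 and 61.1 CPM in Fracture (adjusted p = 7.56e-06), and 5 of 13 cells held 82.7% of its UMIs. By UMIs it was at least 26.3-fold higher, a bound that does not extend to cells. After thinning, it was found in 2.23% and 1.63% of Fracture members, and 0 Control cells with it allow up to 3.19% and 5.08%. Over the 3 tiers of Mmp9, Mmp10 was at 8.36, 24.3 and 57.1 CPM in Fracture 1 and 7.08, 49.3 and 76 CPM in Fracture 2. With exactly 2 UMIs of Mmp9 it was at 34.2 and 93 CPM in these preparations. The order over the tiers rests on 13 cells and did not hold for the cells just inside the limit in Fracture 2. Both genes lie on chromosome 9 in the metalloproteinase cluster. Their promoters are shown because this neighbouring pair rose together (the 250 bases before the start site, RefSeq, GRCm38.p6, plus strand). The motif TGANTCA of AP-1 factors, with N any base, was searched on both strands. The match is in capitals, and its first base lies 46 bases before the start in Mmp3 (chr9:7445572-7445821) and 63 bases before it in Mmp10 (chr9:7502092-7502341).
Mmp3: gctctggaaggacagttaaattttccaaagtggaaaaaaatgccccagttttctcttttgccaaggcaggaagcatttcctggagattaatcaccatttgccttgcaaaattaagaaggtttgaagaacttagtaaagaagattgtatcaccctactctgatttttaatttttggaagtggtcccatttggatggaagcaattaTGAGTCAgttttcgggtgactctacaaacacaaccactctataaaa
Mmp10: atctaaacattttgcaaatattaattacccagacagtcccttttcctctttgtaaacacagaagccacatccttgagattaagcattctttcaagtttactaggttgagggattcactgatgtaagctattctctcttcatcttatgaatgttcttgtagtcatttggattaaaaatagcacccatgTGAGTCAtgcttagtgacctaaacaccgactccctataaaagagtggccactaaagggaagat
The motif was present in 6.75% of 32851 promoter windows of this length. Of the 7 named rises with a promoter entry, 3 held it (Lrrc15, Mmp3 and Mmp10) and 4 did not. The promoters printed come from neighbouring related genes, and a match describes the letters only, not a bound site.

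Of 14 chemokines and cytokines tested, 5 rose (Ccl7, Cxcl1, Cxcl5, Tgfb2 and Inhba), 2 fell (Cxcl14 and Il1rn) and 7 did not pass, among them the monocyte chemokine gene Ccl2 (log2 1.14, adjusted p = 0.213). Cxcl5 was at 5.43 and 4.73 CPM in Control and 225 and 315 CPM in Fracture (log2 5.81 ± 0.31, adjusted p = 7.45e-09), in 27 Fracture cells. Ccl7 was at 0 UMIs in Control and 17.7 and 74.2 CPM in Fracture, at least 25-fold higher, in 17 cells. Cxcl3 (1.09 and 0 against 8.41 and 42.2 CPM, adjusted p = 0.00822), which is outside that list, lost its call with DESeq2 (log2 5.44) and with the genes beginning with U or n kept in the sums (5.29, adjusted p = 0.077). Somewhat more cells held the fibroblast genes Lrrc15 (0 UMIs against 67.3 and 54.3 CPM, at least 31.2-fold, 44 cells), Fbln2 (2.17 and 3.15 against 149 and 98 CPM, 58 cells), Pdpn (1.09 and 0 against 28.3 and 24.9 CPM, 47 cells) and the actin gene Actg2 (0 UMIs against 87.7 and 65.2 CPM, at least 39.2-fold, 39 cells). Markers of other cell types moved with them. All 6 fibroblast markers tested rose (median log2 3.96), 5 of them to levels below those over all cells in both Fracture preparations, and the 8 markers of that list summed to 127, 117, 580 and 613 CPM. Of 5 erythroid markers 4 rose (median log2 4.78), with sums of 88, 155, 1558 and 2379 CPM over the list. Of the smooth muscle markers, Acta2 rose from 48.9 and 14.2 to 694 and 488 CPM (log2 4.23), in 10.8% of Control and 30.4% of Fracture members, and 3 of 7 rose and 1 fell, with sums of 535, 136, 1177 and 848 CPM. In Fracture, Acta2 was at 945 CPM with 1 UMI of Mmp9, 922 with 2 to 9 and 146 with 10 or more. It was found in 28.8% and 30.6% of the Fracture Mmp13+ Mmp9- cells. The part of these cell types in the result was not tested.

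**Figure D4:**
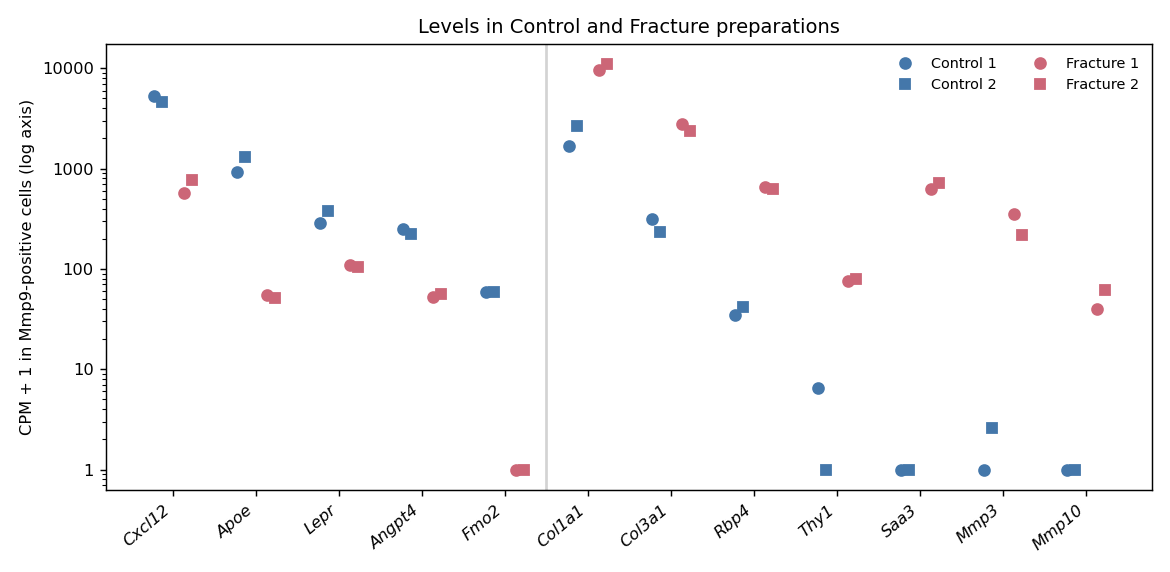
CPM + 1 (log axis) of 12 genes in the Mmp9+ stromal cells, 1 point per preparation, 2 per group. Cxcl12, Apoe, Lepr, Angpt4 and Fmo2 are lower in Fracture, and Col1a1, Col3a1, Rbp4, Thy1, Saa3, Mmp3 and Mmp10 are higher, with no overlap between the groups.

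Collagen transcripts rose. Col3a1 was at 312 and 233 CPM in Control and 2815 and 2387 CPM in Fracture (log2 3.36 ± 0.16, adjusted p = 2.08e-09), and the share of members with a UMI went from 36.1% to 92.3%. Col1a1 rose from 1680 and 2675 to 9629 and 10973 CPM (log2 2.36). Of 12 fibrillar collagens 8 rose and 0 fell. For 5 of the 8 the level in Fracture members was below that over all passing cells of the same preparations. Col3a1 went from 221 and 108 to 2903 and 2867 CPM over all cells, while Col1a1 went from 35036 and 31708 to 25506 and 25929 CPM there. The same holds for other lists that rose: 8 of 14 glycolysis and hypoxia genes, 12 of 16 immediate early genes and all 5 chondrocyte markers rose, each with a level below that over all cells in both Fracture preparations. Free RNA can give such a change, and its part was not tested. The chondrocyte marker Col10a1 stood at 30.4 and 17.3 CPM in Control members and 3580 and 4156 CPM in Fracture members, against 9567 and 9130 CPM over all Fracture cells.

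Cell cycle genes rose as well. Of 17 such genes 16 rose and 0 fell, with a median log2 change of 1.94 (-0.00 over all genes tested), and for all 16 the Fracture level was above that over all cells in at least 1 Fracture preparation. Top2a, which untangles replicated DNA, was at 53.2 and 44.2 CPM in Control and 192 and 225 CPM in Fracture (log2 2.20 ± 0.18, adjusted p = 3.33e-07), while over all cells it went from 183 and 421 to 87.3 and 88.5 CPM. Cdk1, the kinase that starts mitosis, rose from 21.7 and 17.3 to 137 and 150 CPM (log2 2.97 ± 0.20, adjusted p = 7.4e-08). Mki67, a marker of cycling cells, rose from 38 and 50.5 to 114 and 128 CPM (3.03-fold, adjusted p = 1.76e-05). The groups did not overlap for any of the 3, and 16 of 17 rose also among members with 10 or more UMIs of Mmp9 (median 2.09) and without cells that carried marks of other types (median 1.81). After thinning to 2000 UMIs, Top2a was found in 3.19% and 5.08% of Control and 11.6% and 15.4% of Fracture members, against 6.06%, 8.47%, 27.7% and 26.4% before it. The thinned shares for Mki67 were 3.19%, 5.08%, 10.7% and 12.6%. Before thinning they were 4.04%, 20.3%, 22.8% and 28.9%, so Control 2 lay close to Fracture 1. The Top2a level was 112, 174 and 256 CPM at 1, 2 to 9 and 10 or more UMIs of Mmp9 in Fracture. In Control it was at 116, 85.8 and 21.4 CPM in preparation 1 and 5.79, 63.8 and 24.9 CPM in preparation 2, and only 11 Control members held a UMI of it, 1 of them 37 of the 49 in Control 1.

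Genes of marrow stromal cells fell. All 9 genes tested of a list that marks diaphyseal stromal cells were lower in Fracture, with a median log2 change of -2.33. The makeup of the members also differed. At least 3 UMIs of Adipoq were held by 13 of 99 and 15 of 59 Control members and by 0 of 224 and 4 of 246 Fracture members. The part of these cells in the falls was not tested. Cxcl12 went from 5340 and 4583 to 567 and 763 CPM (log2 -2.78 ± 0.16, adjusted p = 1.16e-08) and the stem cell factor gene Kitl from 336 and 295 to 38.1 and 61.1 CPM (log2 -2.54). Lepr, the leptin receptor (chr4:101717404-101815352, plus strand), went from 288 and 378 to 108 and 104 CPM (log2 -1.53, adjusted p = 5.22e-06). Over all cells Cxcl12 went from 2697 and 2994 to 156 and 182 CPM. The change was smaller in members with 10 or more UMIs of Mmp9. There 5 of 8 tested were lower, with a median of -0.94, Cxcl12 at -1.85 and Lepr at 0.20 (adjusted p = 0.586). Apoe, the lipid carrier, fell from 934 and 1295 to 53.6 and 49.8 CPM (log2 -4.32 ± 0.19, adjusted p = 6.05e-10). Fmo2, a flavin-containing monooxygenase (chr1:162874317-162898726, minus strand), fell from 57.5 and 58.3 CPM to 0 UMIs, at least 94.7-fold lower, and was found in 21 of 158 Control members. The Adra2c adrenergic receptor fell from 44.5 and 74.1 to 1.77 and 2.64 CPM (log2 -4.52 ± 0.39, adjusted p = 8.31e-07).

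The other named falls were in the adhesion gene Negr1 (22.8 and 33.1 to 0.886 and 0 CPM), Pcdhb9 (log2 -4.88), the interferon-inducible GTPase gene Iigp1 (88 and 112 to 2.66 and 8.29 CPM), F830016B08Rik (-3.99), Gm4951 (-3.76) and H2-Q10 (-3.76). Cybb, the oxidase subunit of phagocytes, fell as well, but its Control UMIs came from 6 cells. Of 4 neutrophil markers tested 3 were lower in Fracture, though, as given above, the sum of that list was lower in Control 2 than in Fracture 2. Of 3 osteoclast markers tested 2 were lower (Acp5 and Itgb3), and of 2 macrophage markers Lyz2 was lower and Cd14 higher. The part of these markers in the fall of Cybb was not tested.

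Of the list that marks metaphyseal stromal cells, 2 of 8 rose and 5 fell. Thy1, a surface protein of fibroblasts and progenitors, went from 5.43 and 0 to 74.4 and 78 CPM, and the matrix gene Tnc fell from 3873 and 3722 to 1430 and 1602 CPM (log2 -1.21). The retinol carrier gene Rbp4 rose from 33.7 and 41 to 652 and 623 CPM (log2 4.23 ± 0.18, adjusted p = 6.05e-10) and over all cells from 71.7 and 34.2 to 736 and 668 CPM. Aldh1a2, which makes retinoic acid, fell from 111 and 213 to 20.8 and 21.1 CPM (log2 -2.78). In all, 4 of 9 retinoid genes rose and 1 fell.

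Notch genes fell where they changed. Heyl went from 150 and 170 to 60.2 and 64.4 CPM (log2 -1.23 ± 0.15, adjusted p = 2.44e-05) and Notch3 from 103 and 91.5 to 43 and 55.8 CPM (log2 -0.86, adjusted p = 0.00284). Of 3 receptors 2 were lower, and of 8 targets and modulators 3 were lower and 0 higher. The genes called here were also lower after fracture by group means in the Mmp13+ Mmp9- cells. Heyl went from 45.1 to 11.7 CPM there and Notch3 from 67.9 to 20.9 CPM. Between the classes the fracture effect was called different for 1 of the 8 targets and modulators, Hey1, more positive in the members. It was called different for 0 of the 3 receptors. Angpt4 fell from 251 and 222 to 51.8 and 55 CPM (log2 -2.03 ± 0.14, adjusted p = 7.4e-08) and the lymphatic growth factor gene Vegfc from 70.6 and 74.1 to 19.5 and 22.6 CPM (log2 -1.65). By group means Angpt4 went from 289 to 32.3 CPM and Vegfc from 64.1 to 12 CPM in the Mmp13+ Mmp9- cells. Among proteases Mmp2 rose from 199 and 134 to 388 and 354 CPM (log2 1.25, adjusted p = 6.39e-05), the aggrecanase gene Adamts5 fell from 200 and 224 to 97 and 104 CPM (log2 -0.96), and Mmp14 did not pass (log2 0.20, adjusted p = 0.34). Adamts5 fell in the Mmp13+ Mmp9- cells as well, from group means of 263 to 56.1 CPM, and Mmp2 rose there from 219 to 588 CPM. Tnfrsf11b, the decoy receptor of RANKL, rose from 4.34 and 4.73 to 29.7 and 18.5 CPM (log2 2.50, adjusted p = 0.00136), while Tnfsf11 had a log2 change of -0.25 (adjusted p = 0.264) and Spp1 one of -0.05 ± 0.12 (adjusted p = 0.787). The Fracture level of Tnfrsf11b was below that over all cells in both Fracture preparations.

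The fracture effect was then compared between the members and the Mmp13+ Mmp9- cells in 1 model, with a class-by-group term. The limits on Mmp13 and Adipoq again held for the latter class only, and their part was not tested. It differed for 608 of 11782 genes (5.16%), more positive in the members for 376 (3.19%) and more negative for 232 (1.97%). The count was 354 without Fracture 2 and 159 with DESeq2. Of 17 cell cycle genes 11 were called on the positive side and 0 on the negative (median 1.73). Markers of other cell types were called too. Erythroid markers were positive for 4 of 5 (median 3.46), and their sums were 88, 155, 1558 and 2379 CPM in members against 76.8, 1976, 1339 and 2071 CPM in the other cells. Of 7 smooth muscle and pericyte markers 3 were positive (Myh11, Acta2 and Tagln) and 1 negative, and of 5 neutrophil markers 3 were negative (median -4.38), with the Control 1 cell given above among the members. Of 5 chondrocyte markers 2 were positive, and of 6 osteoblast markers 3 (Col22a1, Sp7 and Alpl; median 0.57). The osteoclast marker Acp5 and the macrophage marker Lyz2 were negative. The part of these markers in the result was not tested. Top2a rose in the members as given above but went from 113 and 156 to 82.3 and 84.2 CPM in the other cells (difference of log2 changes 2.63 ± 0.20, adjusted p = 8.53e-06). The share of the other cells with a Top2a UMI did not fall. After thinning it was 4.56% and 4.57% in Control and 6.1% and 7.09% in Fracture. Slc20a2, a phosphate transporter, went from 49.9 and 66.2 to 80.2 and 84.8 CPM in members and from 107 and 147 to 36.2 and 36.8 CPM in the other cells (2.20 ± 0.17, adjusted p = 1.09e-05). It is 1 of 6 of 8 metaphyseal genes on the positive side, with 0 on the negative.

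Lepr fell further in the other cells, from 210 and 239 to 21.4 and 17.8 CPM (difference 1.79 ± 0.15, adjusted p = 2.21e-05). Pgf, the osteogenic regulator Bmp3 and Tnfrsf11b also had more positive effects in the members, by 1.68 ± 0.18, 2.45 and 2.75 on the log2 scale. On the negative side were Mmp14 (-0.89 ± 0.13, adjusted p = 0.00112) and 7 of 19 lysosomal genes, among them the cathepsins Ctsd (-0.91) and Ctsk (-0.80). Of the 19, 1 was called on the positive side, Ctsc. In members Ctsk was at 284, 213, 229 and 231 CPM, and in the other cells at 239, 182, 314 and 316 CPM. The chondrocyte markers of the Mmp13+ Mmp9- cells rose as given above, and with only cells of low Col10a1 the split was 275 positive and 280 negative.

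**Figure D5:**
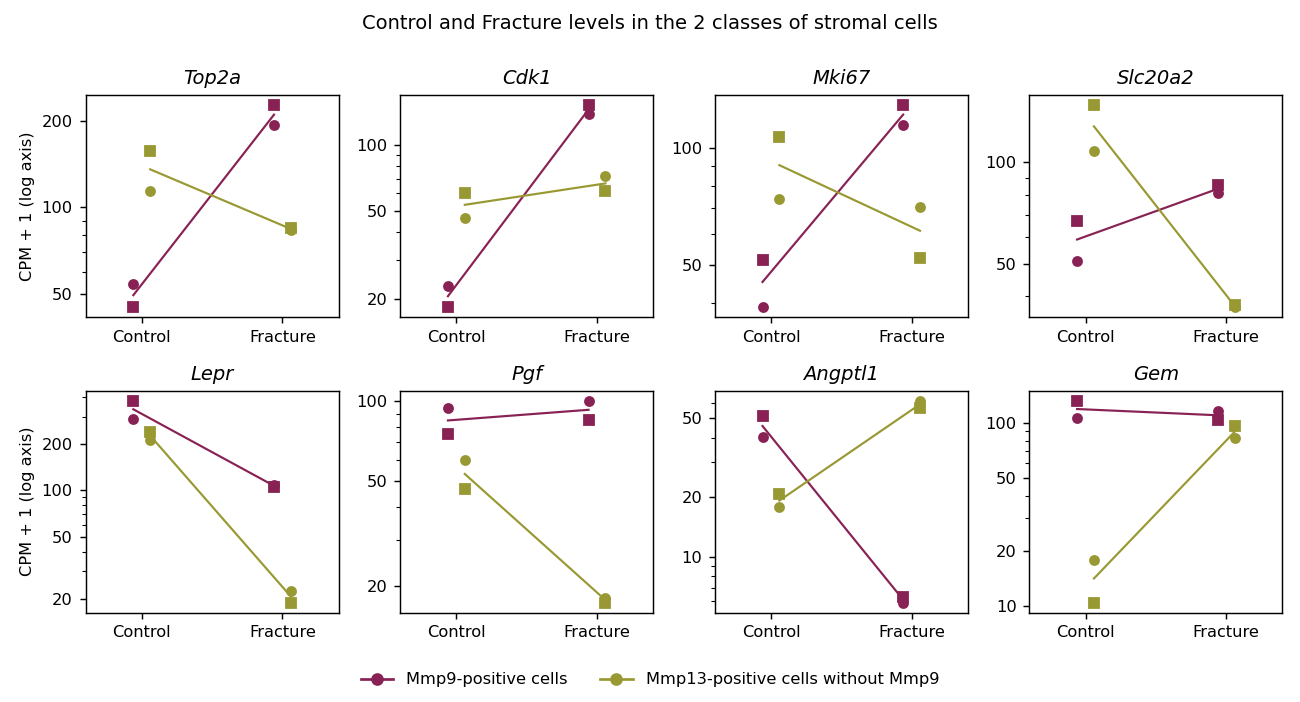
CPM + 1 (log axis) of 8 genes in Control and Fracture, 1 point per preparation, with lines joining the means of the Mmp9+ cells and of the Mmp13+ Mmp9- cells. The means of Top2a, Mki67 and Slc20a2 go up in the Mmp9+ cells and down in the others, Cdk1 goes up further in the Mmp9+ cells, and Angptl1 goes down in them and up in the others.

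Last, the members were set against Adipoq+ Mmp9- stromal cells, the main Pdgfrb cells of the marrow (2687 cells with at least 3 UMIs of Adipoq; 46 and 66 of them in Fracture). Of 11095 genes 2600 differed (23.4%), 1317 higher (11.9%) and 1283 lower (11.6%), and the count was 1618 without Control 1 and 1564 without Control 2. Receptors better known from lymphocytes were among the largest differences. Btla, an inhibitory receptor of lymphocytes, was at 57.5, 59.9, 18.2 and 15.8 CPM in members and at 0.473, 0.492, 2.96 and 0 CPM in Adipoq+ cells (log2 6.67 ± 0.43, adjusted p = 2.77e-05). It was at 35.1, 32.9, 7.08 and 5.49 CPM in the Mmp13+ Mmp9- cells. Cd28, a co-stimulatory receptor, had a log2 difference of 6.46. All members had 0 UMIs of Ptprc by the rule.

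Sstr2 was at 0.236, 0, 0 and 6.53 CPM in the Adipoq+ cells (log2 7.80 ± 0.61, adjusted p = 7.46e-05). The galanin receptor gene Galr2 (log2 5.46), Fam167a (5.71), Gli1 (5.23), Bmp8a (4.82), Col25a1 (4.74) and Otos (4.54) were also higher. Not all of these were particular to the members. Bmp8a had Control and Fracture means of 59.6 and 39.8 CPM in them and 55.4 and 51.4 CPM in the Mmp13+ Mmp9- cells. Col25a1 had means of 64.3 and 25.5 CPM against 101 and 11.7 CPM. Galr2 and Fam167a had higher means in the members than in the Mmp13+ Mmp9- cells in both groups. Spp1 was at 1154, 542, 15578 and 2957 CPM in Adipoq+ cells (log2 4.24, adjusted p = 0.00343). By list, 5 of 9 metalloproteinases were higher in the members and 1 lower, 9 of 14 osteogenic regulators higher and 1 lower, 12 of 25 cytoskeletal genes higher and 2 lower, and 11 of 17 cell cycle genes higher. Against the Mmp13+ Mmp9- cells the osteogenic regulators had 1 higher and 2 lower and the cytoskeletal genes 2 higher and 1 lower. Of the 17 cell cycle genes edgeR called 0 there (median log2 0.33), with 1 at an unadjusted p under 0.05, and DESeq2 called 0. Of the 8 Notch targets and modulators 2 were higher than in Adipoq+ cells (Hey1 and Hey2) and 3 lower. Heyl was at 166, 182, 65.1 and 67.4 CPM in the Adipoq+ cells (log2 -0.04 ± 0.12, adjusted p = 0.867), and Notch3 was lower in the members (log2 -1.20 ± 0.14, adjusted p = 0.000342). Bmp4 was at 9.77, 11, 5.76 and 2.64 CPM in members against 130, 177, 104 and 183 CPM (log2 -4.48 ± 0.31, adjusted p = 3.69e-05) and Apoe at 5773, 5303, 4879 and 4571 CPM in the Adipoq+ cells (log2 -4.29). Also lower were the chemokine gene Cxcl13 (log2 -6.46), Ptchd4, Kcnq3, Serpina3c, Gpr50, Ptchd1, Marc1 and Gm16310. All 9 diaphyseal genes tested (median -3.20) and 9 of 12 WNT and BMP antagonists were lower in the members. Markers of other cell types differed as well. Of 6 osteoblast markers 4 were higher (Col22a1, Dmp1, Sp7 and Alpl) and 1 lower, of 5 neutrophil markers 3 were higher (median 5.43), and Acp5 and Itgb3, of 3 osteoclast markers, and the macrophage gene Lyz2 were higher. Of 5 erythroid markers 4 were lower (median -2.69), of 7 fibroblast markers 1 was higher and 3 lower, and of 7 smooth muscle and pericyte markers 1 was higher and 2 lower. Their part in the result was not tested.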

How the data were processed

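Libraries were made with the 10x Chromium 3' kit. The authors deposited UMI counts of each gene in each barcode, without normalisation. The submitters' processing notes name STAR 2.7.3a, UMI-tools 1.0.0, featureCounts 1.6.4 and mm10, and which route made the tables is not settled. Each library held 56543151 to 89126291 UMIs, and the 628 members 6543808 UMIs. Both Control 1 tables list no gene beginning with U or with a lower-case n, so these genes (290 and 77) are not analysed here.

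UMIs were summed per class and preparation, both libraries of a preparation together. Sums were compared with the quasi-likelihood test of edgeR 4.0.16 (R 4.3.3) after its filter on low counts and TMM normalisation, and p-values were Benjamini-Hochberg adjusted over all genes tested, with calls at an adjusted p under 0.05. Rule genes, Fabp5, Mmp13 and Adipoq were left out of counts in all comparisons. DESeq2 1.42.0 served as an alternative, and the scripts were tested on simulated data. CPM values are plain and, as 3' counts, need no gene length. Shares were compared by exact permutation (scipy 1.17.1), doublets were called with scanpy 1.11.5, and Python 3.11.15 was used. Coordinates are GENCODE M21 (GRCm38). Bounds, binomial limits of a count of 0 (3 counts) and intervals cover counting error only. Fold bounds and intervals take UMIs as separate draws, also where few cells held them. Values in the order Control 1, Control 2, Fracture 1, Fracture 2 are given where 4 stand together.

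Named genes were the 10 largest rises and falls among genes called whose preparations did not overlap, at a mean of at least 20 CPM where higher and there at least at the level over all cells, leaving out rule genes and markers of other cell types. Lists were described by counts, with up to 4 examples, and a few further genes were chosen after their values were seen. Some genes that met the rule are not reported here. The members and lists were chosen with earlier results of these data known.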

Additional observations from a re-analysis of the deposited data

Results flagged for a closer look

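The fracture effect differed between the Mmp9+ and the Mmp13+ Mmp9- stromal cells for 608 genes by the class-by-group term of edgeR. Values below are the members' log2 change minus that of the other cells. The named genes with more positive effects were the axon guidance receptor Robo2 (3.56), the mitotic kinase gene Plk1 (3.30), the linker histone gene Hist1h1b (3.25), the kinetochore gene Spc25 (3.13), Melk (3.08) and Shcbp1 (2.69), and Ndnf (2.68), Gdf10 (2.65) and R3hdml (2.64). Hist1h1b was at 10.9 and 7.88 CPM in Control members and 85 and 85.6 CPM in Fracture members, against 27.4 and 43.7 and then 30.2 and 28.6 CPM in the other cells. Robo2 went from 7.6 and 3.15 to 25.2 and 27.9 CPM in members and from 23.1 and 25.8 to 10 and 7.73 CPM in the other cells. Ndnf, a secreted neurotrophic factor, was at 13, 7.88, 15.1 and 20 CPM in the members and fell in the other cells, from 116 and 134 to 28.5 and 29.7 CPM.

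More negative effects were found for Angptl1 (-4.87), Ccl2 (-4.10), Aldh1a3 (-3.72), Rasl11b (-3.36), Pamr1 (-3.28), Ifit1 (-3.01), Gem (-2.86), Cldn1 (-2.65), Efemp1 (-2.59) and Slco2b1 (-2.56). Angptl1, an angiopoietin-like secreted protein, went from 39.1 and 50.5 to 4.87 and 5.28 CPM in members and from 16.8 and 19.7 to 60.4 and 55.6 CPM in the other cells, so that the classes changed places. Ifit1, an interferon-induced gene, went from 54.3 and 56.8 to 3.99 and 13.6 CPM in members and from 36.2 and 50.2 to 41.3 and 60.8 CPM in the others. Gem, a small GTPase, was at 105, 131, 115 and 103 CPM in the members and went from 16.8 and 9.39 to 81.7 and 95 CPM in the others. Some of these calls were lost under an alternative. Ccl2 was not called with members of 3 or more UMIs of Mmp9 (-0.05) or of 10 or more (-4.33), and Efemp1 neither at 3 or more nor with DESeq2 (-2.82). With only cells of low Col10a1 the calls of Cldn1 (-0.80) and R3hdml (2.09) were lost. Without Fracture 2 those of Cldn1 (-2.40) and Gdf10 (2.15) were lost, and without Control 1 that of Pamr1 (-2.68). DESeq2 did not call Melk (3.07) or Shcbp1 (2.66).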

How the results depend on the processing

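Of the 80 named values 0 reversed in the alternatives that tested them, and some genes did not pass the filter on low counts in some alternatives. For the fracture comparison 262 of 264 values kept their call, against Mmp13+ Mmp9- cells 243 of 260, against Adipoq+ cells 260 of 260 and for the difference of fracture effects 247 of 259. Counts moved more. For the 2325 genes called after fracture, DESeq2 gave 856, members with 10 or more UMIs of Mmp9 (added after seeing the data) 997, and leaving out a preparation 1374 to 2195. The 796 genes against Mmp13+ Mmp9- cells became 1561 with every gene of at least 1 UMI tested and 228 to 833 without a preparation. The 2600 against Adipoq+ cells became 1564 to 2213, and the 608 of the difference became 159 with DESeq2 and 354 to 884. Keeping the genes beginning with U or n (added after seeing the data) gave 1589, 800, 2628 and 611. A lone preparation left in a group was assumed to vary like the others, and fewer samples enter those fits; the cause of the other moves was not tested.

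The difference in member share was 8.43 points at 3 or more UMIs of Mmp9, 7.96 after thinning, 9.6 with at least 3000 UMIs per cell, 11.1 without cells with marks of other types, 1.15 with all cells as the denominator, and 9.74 to 10.2 without a preparation. Preparation numbers did not pair the samples (correlation of deviations -0.0124 over 10214 genes), and a replicate block gave 2682 calls after fracture. With 99 and 59 Control members, genes of low abundance rest on few UMIs.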
